A study of Homo sapiens with 8 samples.

Results

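The unfolded protein response genes examined here are 10 genes matched by symbol, XBP1, ATF6, ERN1, EIF2AK3, HERPUD1, SDF2L1, CALR, PDIA4, EDEM1 and CRELD2. Of these, 7 had a named probe on the bead arrays and all 7 were tested, among 10856 genes in all; ERN1, EIF2AK3 and HERPUD1 had no named probe and were not analysed here. XBP1 was read by 2 probes and each other gene by 1, and every one of the 8 probes was detected on all 8 arrays. The arrays came from SW620, a human colorectal cancer cell line, in 4 groups of 2 arrays, all after 24 h. One group was untreated, and another received 4 uM of Y15, a compound that inhibits focal adhesion kinase (the protein of PTK2). Another was transfected with siRNA against HAS3, an enzyme that makes hyaluronan, and its control was transfected with a scrambled sequence. The design names 2 comparisons, Y15 minus untreated and HAS3 siRNA minus scrambled. The labels do not say whether the 2 arrays of a group stem from different cultures, and the p-values cover array-to-array spread alone, possibly a technical one.

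The unfolded protein response matches the folding capacity of the endoplasmic reticulum (ER) to its load of new secretory and membrane proteins. Its sensors are the kinase and endonuclease IRE1 (gene ERN1), the kinase PERK (gene EIF2AK3) and the membrane-bound transcription factor ATF6. IRE1 splices the XBP1 transcript into the form that encodes an active transcription factor, PERK slows translation and favours ATF4, and cleaved ATF6 moves to the nucleus. Together these factors induce chaperones, enzymes of disulfide formation and the machinery that removes misfolded proteins. An array probe reads transcript abundance, and neither XBP1 splicing nor ATF6 cleavage was measured.

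ATF6 and XBP1 act at composite promoter sites in which a CCAAT box lies close to the letters CCACG, and the promoters of the measured genes that hold such letters are shown for that reason. The search covered 250 bases before to 50 bases after the start of each gene in RefSeq (GRCh38.p14), on both strands, and 12 promoters belonged to the 10 genes. The ER stress response element was present in 27 of 35116 promoters (0.0769%) and the ER stress response element II in 19 (0.0541%), and the capitals in the sequences show the letters matched. CALR, XBP1 and CRELD2 held the first, SDF2L1 and HERPUD1 held the second, and no member held both. The unfolded protein response element, searched as TGACGTGG, was found in 256 promoters (0.729%) and in 0 of the 10 genes. A match describes letters only, and its absence says that these letters are not in this window. Below, the 250 bases before the start are given 5′ to 3′ on the strand of the gene, with the matched letters in capitals. The windows lie at chr19:12938359-12938608 (plus strand) for CALR, chr22:28800570-28800819 (minus strand) for XBP1, chr22:49918384-49918633 (plus strand) for CRELD2 and chr22:21642052-21642301 (plus strand) for SDF2L1.
CALR: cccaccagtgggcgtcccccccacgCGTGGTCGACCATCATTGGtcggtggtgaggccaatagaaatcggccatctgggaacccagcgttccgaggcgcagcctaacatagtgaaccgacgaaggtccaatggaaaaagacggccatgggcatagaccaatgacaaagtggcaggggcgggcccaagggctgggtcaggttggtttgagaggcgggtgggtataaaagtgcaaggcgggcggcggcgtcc
XBP1: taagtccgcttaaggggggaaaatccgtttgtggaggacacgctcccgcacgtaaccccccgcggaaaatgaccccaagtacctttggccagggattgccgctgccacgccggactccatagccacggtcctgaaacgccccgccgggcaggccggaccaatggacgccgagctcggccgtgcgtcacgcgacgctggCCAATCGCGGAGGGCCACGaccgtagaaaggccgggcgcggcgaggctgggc
CRELD2: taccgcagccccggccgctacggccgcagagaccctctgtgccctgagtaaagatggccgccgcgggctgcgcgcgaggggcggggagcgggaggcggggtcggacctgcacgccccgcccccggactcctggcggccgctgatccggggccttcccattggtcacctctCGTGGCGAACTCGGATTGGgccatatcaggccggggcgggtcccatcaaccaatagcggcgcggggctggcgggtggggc
SDF2L1: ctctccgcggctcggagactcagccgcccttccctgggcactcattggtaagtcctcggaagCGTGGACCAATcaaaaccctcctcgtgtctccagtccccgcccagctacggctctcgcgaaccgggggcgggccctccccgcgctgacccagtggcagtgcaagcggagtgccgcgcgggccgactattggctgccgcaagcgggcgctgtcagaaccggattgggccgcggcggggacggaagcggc
Counted from the start of the gene, the matched letters end at position -207 in CALR, -34 in XBP1, -62 in CRELD2 and -178 in SDF2L1. In XBP1 they run in the direction of the gene, and in the other 3 they lie on the opposite strand.

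Before normalization the arrays had mean intensities of 352.1 to 524.7, except the second Y15 array at 234.1, and 12578 to 13916 probes were detected per array. Correlations of normalized log2 levels were 0.990 to 0.996 within groups and 0.948 to 0.986 between groups. The targeted transcript HAS3 read 10.05 and 9.73 with its siRNA, 10.49 and 10.16 with the scrambled sequence, 9.32 and 9.50 in untreated cells and 9.45 and 9.22 with Y15 (log2 level). Its change with siRNA against scrambled, -0.43 ± 0.17 (SE), did not pass (limma adjusted p = 0.151). Against untreated cells HAS3 was 1.88-fold higher with the scrambled sequence (0.91 ± 0.17, adjusted p = 0.003285). With its siRNA it was not lower than in untreated cells, at 0.48 ± 0.17 (adjusted p = 0.0534). PTK2, whose protein Y15 inhibits, changed by -0.11 ± 0.14 with Y15 (adjusted p = 0.586). Of 12 colon epithelium markers 9 were detected on all 8 arrays and KRT20 and CDX1 on none. Among markers of other cells, 0 of 8 fibroblast, 1 of 8 leukocyte (CD68) and 1 of 6 endothelial genes (PECAM1) were detected on all 8. Summed marker intensity was 10560.9 to 32554.3 for colon epithelium and at most 410.6, 577.5 and 358.3 for the other 3 lists. PTPRC, CD3E, COL1A2, COL3A1 and CDH5 were detected on none. With Y15, 0 of 10 colon markers tested rose and 5 fell, 0 of 3 fibroblast markers passed, and 2 of 3 leukocyte and 1 of 2 endothelial markers rose, CD68 from 5.74 to 7.53 in mean log2 level, where 41.8% of all genes passed. With siRNA against scrambled 3 colon markers and 1 fibroblast marker fell and no other passed, where 8.22% of all genes did. The part of these markers in the results that follow was not tested.

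XBP1, the transcription factor of the IRE1 arm, varied the most widely of the 7, by 2.39-fold between the highest and the lowest group mean. Its log2 levels were 12.42 and 12.41 in untreated cells and 12.26 and 12.44 with Y15. They were 11.48 and 12.12 with the scrambled sequence and 11.21 and 11.11 with HAS3 siRNA. The Y15 arrays overlapped the untreated arrays, both scrambled arrays lay below all of these, and both siRNA arrays were lowest of all. The scrambled arrays differed from each other by 0.64, a wider gap than that of 99.3% of genes in this group. The second XBP1 probe gave 12.45 and 12.35 in untreated cells, 12.26 and 12.34 with Y15, 11.38 and 12.11 with the scrambled sequence, and 11.10 and 11.24 with siRNA. The order of the groups was the same for both probes, and so was the split between the scrambled arrays.

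ATF6, the membrane-bound sensor and transcription factor, stayed within 1.41-fold across the groups. Its log2 levels were 8.75 and 8.91 untreated, 8.95 and 9.09 with Y15, 8.72 and 8.57 scrambled, and 8.57 and 8.46 with HAS3 siRNA. The groups followed the order Y15, untreated, scrambled, siRNA, and the last pair overlapped.

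**Figure D1:**
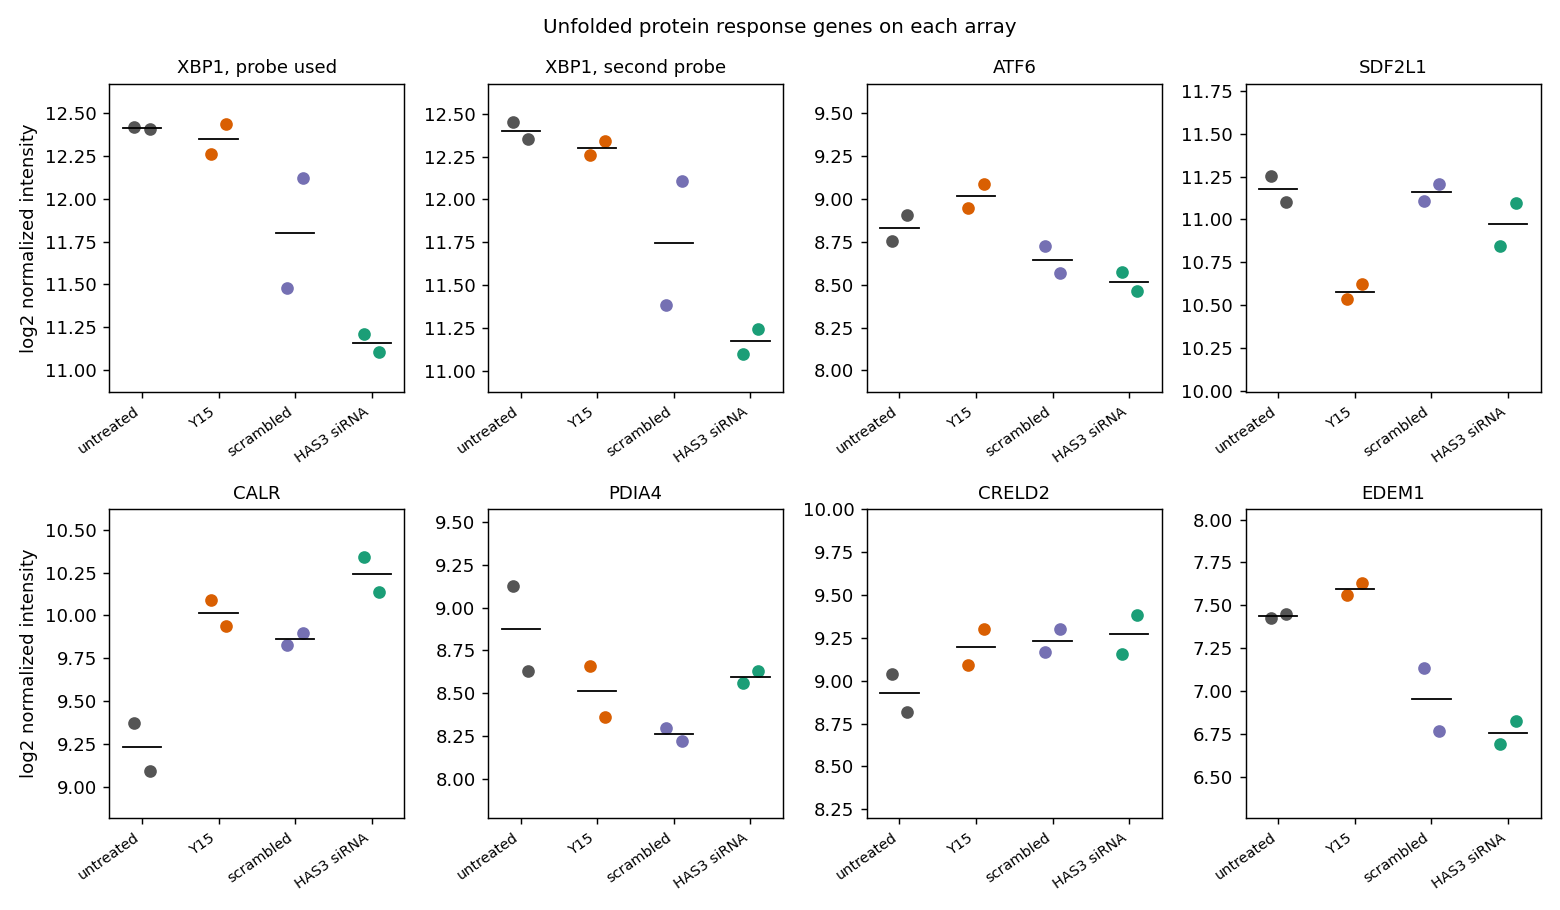
Normalized log2 intensity (vertical axis) of the 7 genes, XBP1 by both of its probes, in the 4 groups; each point is 1 array, each bar a group mean, and every panel spans the same range of log2 units. XBP1 runs from about 12.4 in untreated cells to 11.2 with HAS3 siRNA with the scrambled arrays apart at 11.48 and 12.12, CALR is lowest in untreated cells, and SDF2L1 is lowest with Y15.

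Of the chaperones, SDF2L1 and CALR moved apart. SDF2L1, which works with the ER chaperone BiP and its co-chaperones, read 11.25 and 11.10 in untreated cells and 10.53 and 10.62 with Y15. It stood at 11.11 and 11.21 with the scrambled sequence and at 10.85 and 11.10 with siRNA. The Y15 arrays lay below all 6 others, and the untreated and scrambled arrays overlapped. CALR, the calcium-binding lectin chaperone calreticulin, read 9.37 and 9.09 in untreated cells, 10.09 and 9.94 with Y15, 9.83 and 9.90 scrambled, and 10.34 and 10.14 with HAS3 siRNA. The untreated arrays were the lowest, and no 2 groups overlapped.

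PDIA4 is a protein disulfide isomerase of the ER. It read 9.13 and 8.63 untreated, 8.66 and 8.36 with Y15, 8.30 and 8.22 scrambled, and 8.56 and 8.63 with siRNA. The untreated arrays were 0.50 apart, a wider gap than that of 94.5% of genes, and the scrambled arrays were the lowest. CRELD2, an ER protein with EGF-like domains that ER stress induces, varied least, by 1.27-fold. Its levels were 9.04 and 8.82 untreated, 9.09 and 9.30 with Y15, 9.17 and 9.30 scrambled, and 9.16 and 9.39 with siRNA. The untreated arrays were below all others, and the other groups overlapped one another. EDEM1 hands misfolded glycoproteins to ER-associated degradation. It read 7.43 and 7.45 untreated, 7.56 and 7.63 with Y15, 7.13 and 6.77 scrambled, and 6.69 and 6.82 with siRNA. Both transfected groups lay below the others and overlapped, and the scrambled arrays differed by 0.36, more than for 92.5% of genes.

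With Y15, CALR rose and SDF2L1 fell, while XBP1, ATF6, PDIA4, CRELD2 and EDEM1 did not pass. Over all genes 41.8% passed in this comparison, so 2 of 7 was no larger a share than the background. CALR rose 1.72-fold, by 0.78 ± 0.15 (SE) on the log2 scale (limma adjusted p = 0.00138). SDF2L1 fell 1.51-fold, by 0.60 ± 0.14 (adjusted p = 0.00520). These 2 chaperones thus went opposite ways under the same treatment. In bulk RNA, fewer cells expressing a gene and less RNA per cell cannot be told apart.

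XBP1 changed by -0.06 with Y15, and the 95% interval of -0.47 to 0.34 leaves room for a change of either sign. PDIA4 changed by -0.37 (interval -0.75 to 0.01, adjusted p = 0.112), with overlapping arrays. PDIA4 passed at -0.62 without the second untreated array (adjusted p = 0.0219) and at -0.88 with arrays centred on the median of all probes (adjusted p = 0.0131). CRELD2 changed by 0.27 (adjusted p = 0.174), ATF6 by 0.19 (adjusted p = 0.304) and EDEM1 by 0.16 (adjusted p = 0.434), each negative instead under that centring. Arrays did not overlap for 5 of the 7 genes, against 67.8% of all genes. The median change of the 7 was 0.16, beside -0.03 over all genes. The CALR rise was 0.33 (adjusted p = 0.328) when centred on all probes, which moved the median of all genes to -0.31. The SDF2L1 fall was 0.42 (adjusted p = 0.0637) with arrays centred on detected probes, where the median of all genes was 0.22. CALR intensities before normalization were 728.1 to 973.5 in untreated cells and 487.8 and 1227 with Y15, the lower of these on the dim second Y15 array.

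With HAS3 siRNA against the scrambled control 0 of the 7 genes passed in limma, where 8.22% of all genes did; XBP1 and CALR had an unadjusted p under 0.05. XBP1 was 1.56-fold lower in mean, by -0.64 ± 0.19 (95% interval -1.05 to -0.23, adjusted p = 0.0575), and the siRNA and scrambled arrays did not overlap. Arrays did not overlap for 4 of the 7 genes, against 57.6% of all genes. This XBP1 difference passed in 6 of 12 other settings and failed in the rest (adjusted p = 0.0262 to 0.328). It was -0.96 without the first scrambled array (adjusted p = 0.0123) and -0.32 without the second (adjusted p = 0.498). The second XBP1 probe gave -0.57 ± 0.20 (adjusted p = 0.122).

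The other genes were closer between these groups. CALR changed by 0.38 ± 0.15 (adjusted p = 0.160) and PDIA4 by 0.34 ± 0.17 (adjusted p = 0.295), with no overlap of arrays in either. EDEM1 (-0.19), SDF2L1 (-0.19), ATF6 (-0.13) and CRELD2 (0.04) had adjusted p-values of 0.496 to 0.920.

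**Figure D2:**
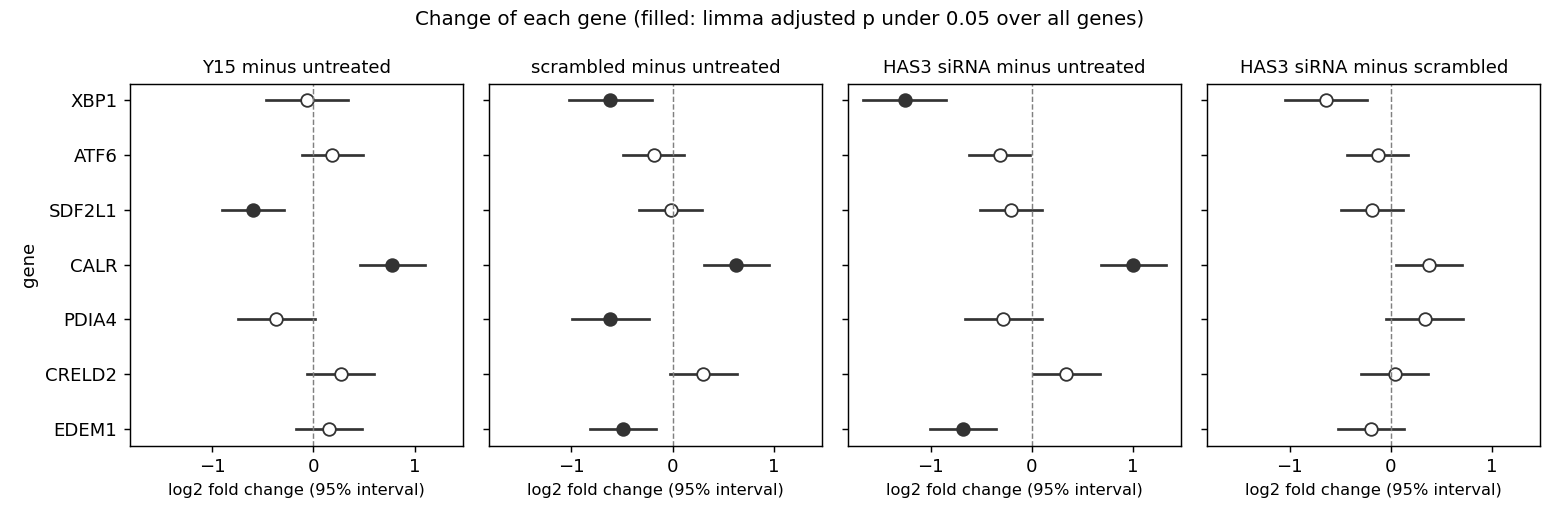
Log2 fold change (horizontal axis) of each of the 7 genes in 4 comparisons, with its 95% interval from limma; filled points passed at an adjusted p under 0.05 over all 10856 genes. CALR is higher than untreated in all 3 other groups, XBP1 is lower in both transfected groups, and no point is filled for HAS3 siRNA minus scrambled.

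The effects of Y15 and HAS3 siRNA were then compared with each other, over pairs of groups that share no array. PDIA4 was the only one of the 7 to differ, where 30.8% of all genes did. Its Y15 change was lower than its siRNA change by 0.70 ± 0.25 on the log2 scale (limma adjusted p = 0.0491), from opposite signs of which neither passed alone, and with arrays centred on detected probes PDIA4 was lost (adjusted p = 0.0777) and XBP1 passed at 1.02 (adjusted p = 0.0371). The PDIA4 call was lost in 6 of the 8 fits that left out an array and in 4 of 11 other settings, and the difference was -0.45 without the first untreated array (adjusted p = 0.173). For XBP1 the difference of the effects was 0.58 (95% interval from about 0 to 1.15, adjusted p = 0.120), for CALR 0.40 (adjusted p = 0.167) and for SDF2L1 -0.41 (adjusted p = 0.141).

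Scrambled cells differed from untreated cells in 4 of the 7 genes, against 19.5% of all genes. This comparison shares the untreated arrays with the Y15 comparison and the scrambled arrays with the siRNA comparison. CALR rose by 0.63 ± 0.15 (1.55-fold, limma adjusted p = 0.0120). XBP1 fell by 0.62 ± 0.19 (1.53-fold, adjusted p = 0.0385), PDIA4 by 0.62 ± 0.17 (1.53-fold, adjusted p = 0.0288) and EDEM1 by 0.49 ± 0.15 (1.40-fold, adjusted p = 0.0401). CRELD2 changed by 0.31 (adjusted p = 0.181), ATF6 by -0.19 (adjusted p = 0.383) and SDF2L1 by -0.02 (adjusted p = 0.942).

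These control differences rested on few arrays and in part on the processing. Over 12 other settings XBP1 was lost in 3, PDIA4 and EDEM1 in 2 each and CALR in 1. Without any 1 untreated or scrambled array only 1 of the 4 calls was left: CALR without the first untreated array, PDIA4 without the second, EDEM1 without the first scrambled array and XBP1 without the second. CALR and PDIA4 were left without either siRNA array, which enter through the shared spread. XBP1 was -0.29 without the first scrambled array (adjusted p = 0.376) and -0.63 without the second untreated array (adjusted p = 0.109). EDEM1 was -0.31 without the second scrambled array (adjusted p = 0.311) and PDIA4 -0.37 without the first untreated array (adjusted p = 0.219). Arrays did not overlap for 6 of the 7 genes, against 62.9% of all genes.

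HAS3 siRNA was also set against untreated cells, once earlier results were known. Here 3 of 7 genes passed, against 26.2% of all genes, and arrays did not overlap for 6 of 7, against 63.4%. It shares arrays with each comparison above. XBP1 was 2.39-fold lower (-1.26 ± 0.19, limma adjusted p = 0.000618), and its second probe gave -1.23 ± 0.20. CALR was 2.01-fold higher (1.01 ± 0.15, adjusted p = 0.000579). EDEM1 was 1.60-fold lower (-0.68 ± 0.15, adjusted p = 0.00631), with an adjusted p of 0.0606 without the first siRNA array. The XBP1 and CALR calls held in all 12 other settings and without each of the 8 arrays, with adjusted p at most 0.0198. CRELD2 (0.34), ATF6 (-0.31), PDIA4 (-0.28) and SDF2L1 (-0.21) did not pass, with adjusted p-values of 0.117 to 0.324.

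The genes whose profile over the 8 arrays lay nearest to that of XBP1, among 8809 genes detected on all arrays, were GARS1, XPOT and CEBPG. GARS1 is glycyl-tRNA synthetase, XPOT exports tRNA from the nucleus, and CEBPG is a bZIP transcription factor. The measure was the root mean square distance between log2 profiles, each centred on its own mean, and it was 0.06, 0.10 and 0.13, where the XBP1 profile itself varied with a root mean square of 0.53. GARS1 had group means of 12.73 untreated, 12.78 with Y15, 12.21 scrambled and 11.57 with siRNA. Nearest to SDF2L1, whose own root mean square was 0.25, were the ribosomal protein gene RPL13 (0.05), the adaptor protein gene APPL2 (0.06) and RPUSD1 (0.07). Among the 7 genes themselves, ATF6 and EDEM1 were the nearest pair (0.18) and XBP1 and CALR the farthest (0.83). All these profiles share the same arrays and normalization.

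**Figure D3:**
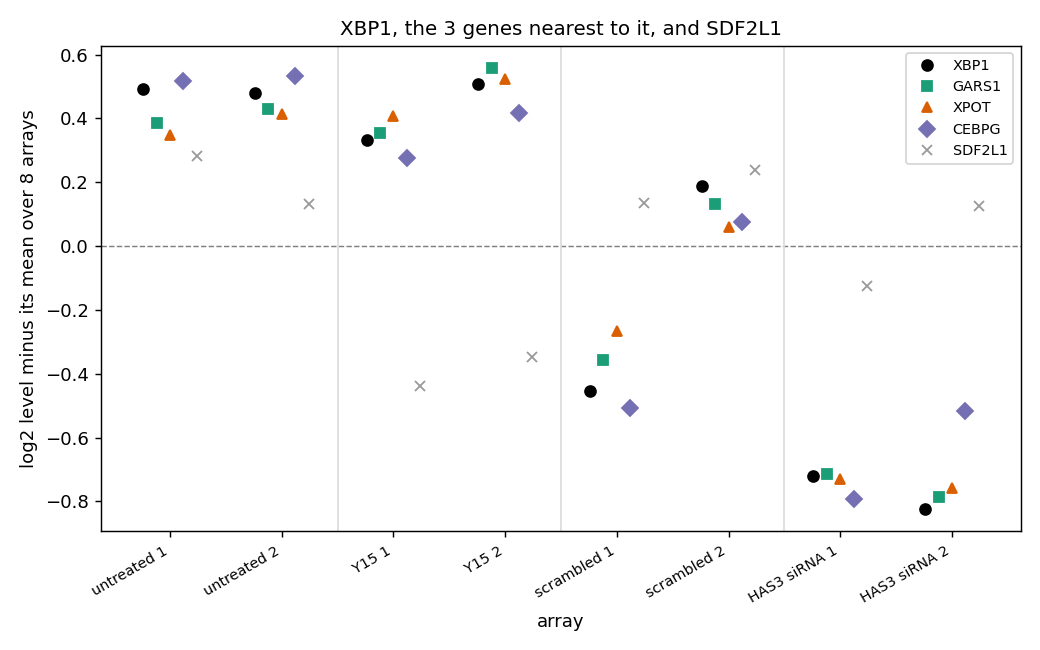
Log2 level minus its mean over the 8 arrays (vertical axis) on each array, for XBP1, the 3 genes nearest to it, and SDF2L1 for contrast; vertical lines part the groups. XBP1, GARS1, XPOT and CEBPG are above their mean on all untreated and Y15 arrays and on the second scrambled array, and below it on the first scrambled array and both siRNA arrays, while SDF2L1 is lowest with Y15.

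The other genes of the pathway were taken from 7 lists by role, of which 118 of 126 genes had a named probe and 110 were tested. With Y15, 22 rose and 20 fell (38.2%, against 41.8% of all genes). The split depended on scaling, with 7 rises and 35 falls after centring on all probes, and 27 and 10 after centring on detected probes. With HAS3 siRNA against scrambled, 2 rose and 6 fell (7.27%, against 8.22%). Between scrambled and untreated cells 2 rose and 29 fell (28.2%, against 19.5%), and the median change was -0.27 beside 0.0013 over all genes. Those falls were 14 with arrays centred on detected probes, 15 without the first untreated array, 7 without the first scrambled array and 17 without the second.

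Of the 12 genes listed as the PERK arm 5 rose and 0 fell with Y15, a share near the 41.8% of all genes. The gene of PERK itself had no named probe, and whether PERK drove any change in this list was not tested. The transcription factor gene ATF3 rose 4.72-fold (2.24 ± 0.26, limma adjusted p = 5.22e-05). PPP1R15A, a regulatory subunit of the phosphatase that restores translation by dephosphorylating eIF2α, rose 4.60-fold. DDIT3, which encodes the transcription factor CHOP, rose 3.57-fold, and DNAJC3, an inhibitor of PERK in the ER, rose 2.26-fold. With HAS3 siRNA against scrambled 6 fell and 0 rose, against 8.22% of all genes, the median change being -0.87. ATF3 fell 5.50-fold (-2.46 ± 0.26, adjusted p = 0.000132), CHAC1, a glutathione-degrading enzyme, 5.10-fold and DDIT3 2.29-fold. ATF4, the transcription factor of this arm, fell 1.87-fold and PPP1R15A 1.79-fold, while a dim probe of ATF4 read 0.42 (adjusted p = 0.302) and a brighter second one -0.89. The count of falls was 3 without the second scrambled array, 3 without the first siRNA array, 8 without the first scrambled array and 3 with no filter on detection. The DDIT3 fall was lost without either siRNA array or the second scrambled array (-0.73 at its smallest, adjusted p at most 0.0841 without an array). The PPP1R15A fall was lost without the first siRNA array and without the second scrambled array, being -0.53 at its smallest. It was also lost in 3 of 12 other settings, either centring among them. The ATF4 and DDIT3 falls were each lost in 1 of the 12, with limma adjusted p at most 0.0769 and 0.0604.

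In scrambled against untreated cells 2 of these 12 genes fell and 0 rose, against 19.5% of all genes, and the median change of the 12 was -0.04. ASNS, asparagine synthetase, fell 5.39-fold against untreated cells (-2.43 ± 0.27, limma adjusted p = 0.000186) and the pseudokinase gene TRIB3 fell 3.48-fold. With HAS3 siRNA against untreated cells 8 of the 12 fell and 0 rose, against 26.2% of all genes. ASNS fell 8.68-fold, TRIB3 7.68-fold and CHAC1 4.49-fold.

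Of 12 other sensors and transcription factors, 1 rose and 3 fell with Y15, against 41.8% of all genes. NFYA, a subunit of the factor that binds CCAAT boxes, rose 2.01-fold, and WFS1, an ER membrane protein, fell 2.11-fold. MBTPS1, the protease that makes the first cut in ATF6, fell 1.66-fold. None passed with siRNA against scrambled, where 8.22% of all genes did and 2 of these genes had an unadjusted p under 0.05. In scrambled against untreated cells CREB3L2, an ER-bound transcription factor, fell 3.21-fold and NFYA rose 1.62-fold.

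Of 17 other chaperones, 4 rose and 2 fell with Y15, against 41.8% of all genes. DNAJB9, a BiP co-chaperone, rose 3.21-fold (1.68 ± 0.15, limma adjusted p = 8.48e-06) and the collagen chaperone gene SERPINH1 rose by 0.85 on the log2 scale. SIL1, the nucleotide exchange factor of BiP, fell 1.67-fold. HSPA5, which encodes BiP, and HSP90B1, which encodes GRP94, are named here after their values were seen. HSPA5 changed by -0.13 ± 0.15 with Y15 (adjusted p = 0.550) and by 0.08 ± 0.15 with siRNA (adjusted p = 0.820), and HSP90B1 by -0.11 ± 0.14 (adjusted p = 0.560) and 0.11 ± 0.14 (adjusted p = 0.729). None of the 17 passed with siRNA against scrambled, where 8.22% of all genes did and 2 of the 17 had an unadjusted p under 0.05. In scrambled against untreated cells 4 fell, against 19.5% of all genes, among them DNAJB9 by 2.34-fold, the opposite direction from its Y15 change. Both of those DNAJB9 values use the same untreated arrays.

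Among 14 other genes of disulfide formation, 3 rose and 6 fell with Y15, against 41.8% of all genes. Over the settings 1 to 4 rose and 2 to 6 fell. The thioredoxin-related TMX3 fell 1.59-fold, and ERO1B, an oxidase that recharges disulfide isomerases, rose 1.71-fold. ERO1B was dim, with mean log2 levels of 4.95 untreated and 5.73 with Y15, and was detected on only 5 of the 8 arrays. TMX1 fell 1.38-fold with Y15 and rose 1.42-fold with siRNA against scrambled, the only gene of this list past the threshold in both. Over 12 other settings the TMX1 rise was lost in 3 and the fall in 2. The TMX1 rise was lost without either siRNA array or either scrambled array (adjusted p at most 0.243), and its fall with Y15 was lost without the second untreated array (adjusted p = 0.128) or the first Y15 array. QSOX1 rose 1.55-fold, a call lost without the first untreated array (adjusted p = 0.106) or the second Y15 array, and a dimmer probe of the same gene read -0.08 (adjusted p = 0.744). In scrambled against untreated cells 5 fell and 0 rose, against 19.5% of all genes. PDIA5 fell 1.86-fold, and CRELD1, the paralog of CRELD2, went from a mean log2 level of 7.64 to 6.65. A dimmer probe of CRELD1 changed by -0.225 there (limma adjusted p = 0.2685).

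Of 19 other genes of ER-associated degradation, 4 rose and 3 fell with Y15, against 41.8% of all genes. DERL2, a channel component, rose 1.93-fold, and the mannosidase gene MAN1B1 fell 2.08-fold. None passed with siRNA against scrambled, where 8.22% of all genes did and 3 of these genes had an unadjusted p under 0.05. In scrambled against untreated cells 1 rose and 4 fell, against 19.5% of all genes. SEL1L, the adaptor of the HRD1 ligase, fell 1.78-fold and SYVN1, which encodes HRD1, fell 1.44-fold.

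Of 20 genes of translocation and signal peptide processing, 4 rose and 4 fell with Y15, against 41.8% of all genes. SEC62 fell 2.54-fold and SPCS1, a signal peptidase subunit, fell 1.52-fold. With siRNA against scrambled SSR4, a subunit of the translocon-associated complex, rose 1.74-fold, where 8.22% of all genes passed. In scrambled against untreated cells 7 fell and 0 rose, including SSR4 by 1.64-fold, against 19.5% of all genes. The count of falls was 2 to 8 over the settings, with up to 2 rises, and was smaller with some arrays left out. The SSR4 rise with siRNA was lost without either siRNA array or either scrambled array (adjusted p at most 0.149). Of 16 genes of ER to Golgi transport 1 rose and 2 fell with Y15, against 41.8% of all genes. The cargo receptor gene TMED10 fell 2.61-fold, and SAR1B, the GTPase that starts COPII coat assembly, rose 1.90-fold. None of the 16 passed with siRNA against scrambled, where 8.22% of all genes did and 2 of the 16 had an unadjusted p under 0.05. Against untreated cells 4 of the 16 fell with the scrambled sequence, where 19.5% of all genes passed, TMED10 by 1.69-fold.

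Several of the calls named from these lists rested on few arrays or on the scaling. In scrambled against untreated cells NFYA, SYVN1, SSR4 and TMED10 were each lost without the first untreated array and without the first scrambled array. SYVN1 was also lost without the second untreated array and SSR4 without the second scrambled array, with adjusted p-values of at most 0.166 over these fits. With Y15, MBTPS1 was lost without the first untreated array (adjusted p = 0.0534). The Y15 calls of NFYA, SERPINH1, DERL2, SAR1B and QSOX1 were lost with arrays centred on all probes, and that of SPCS1 with arrays centred on detected probes.

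**Figure D4:**
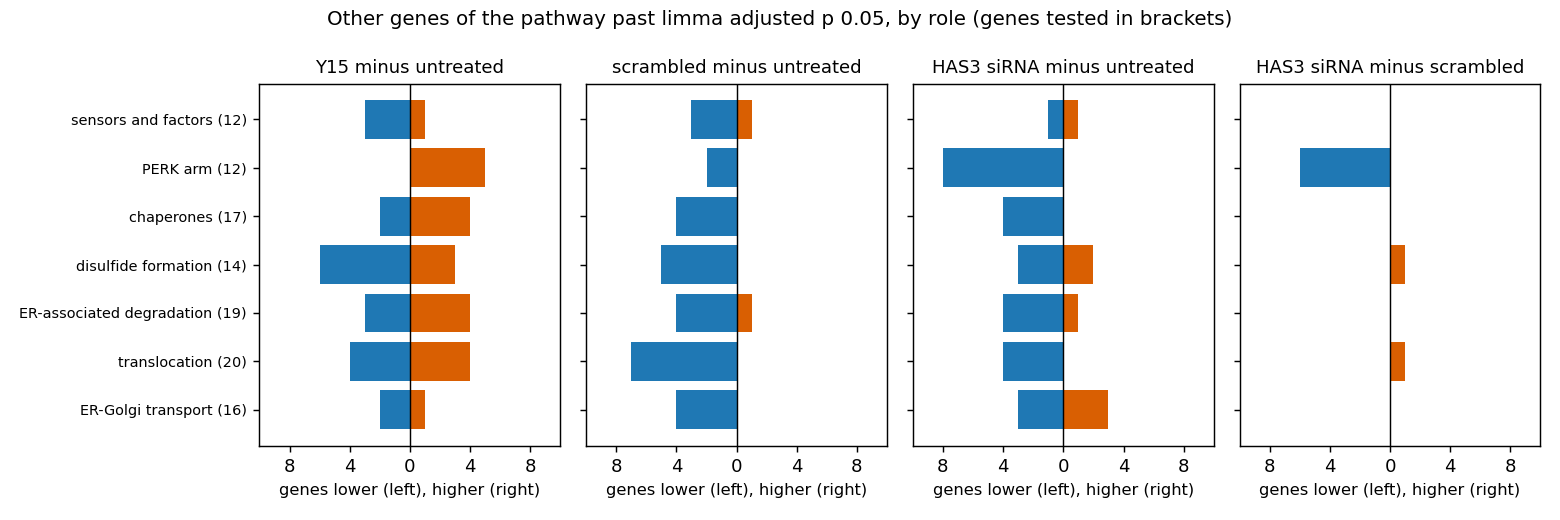
Number of genes of each list past a limma adjusted p of 0.05, higher to the right and lower to the left of 0 (horizontal axis), in 4 comparisons; the number tested stands beside each list name. In the PERK arm 5 genes are higher with Y15 and 6 are lower with HAS3 siRNA against scrambled. Every list has more genes lower than higher in scrambled against untreated cells as plotted. With arrays centred on detected probes, the sensors have 1 higher and 1 lower there, and translocation has 2 higher and 2 lower. With arrays centred on all probes the Y15 counts over all lists become 7 higher and 35 lower.

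Genes whose promoter held either ER stress response element were also counted, as a set chosen by sequence. There were 44, of which 28 were tested and 24 were not among the 10 genes above. Of these 24, 5 rose and 3 fell with Y15, against 41.8% of all genes. With siRNA against scrambled 0 passed in limma (2 at an unadjusted p under 0.05), against 8.22%, and in scrambled against untreated cells 2 rose and 0 fell, against 19.5%. Their median Y15 change was -0.06, beside -0.03 over all genes.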

How the data were processed

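Per the labels' protocols, biotin-labelled cRNA made from total RNA was read on Illumina bead arrays. The extract protocol speaks of frozen tissue samples, although every sample title names SW620. The deposited table holds the intensity of 24526 probes on a linear scale, without background subtraction, and a detection p-value beside each, per the file headers. Per the submitters' processing notes the tool was GenomeStudio (version not given in the sources used here). A second deposited table, the series matrix, holds log2 values, which equal the quantile-normalized log2 intensities to within 5e-09 and were used as an alternative. No centring of genes was found in them, and their median was 5.86 on each array.

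Background was corrected from the detection p-values with limma's nec (offset 16), and the log2 values were quantile-normalized. Probes with detection p under 0.05 on at least 2 of 8 arrays were kept (14631). Probes were named by the platform's annotation, with symbols updated by Entrez identifier to RefSeq (GRCh38.p14). Of all probes 21834 had 1 symbol, 0 had several and 2692 were unnamed. The probe of highest mean stood for a gene, giving 10856 genes. The 8 arrays entered 1 linear model with 4 group means (lmFit and eBayes, R 4.3.3, limma 3.58.1; 4 residual degrees of freedom). Adjusted p-values are from limma by Benjamini-Hochberg over all 10856 genes, with a threshold of 0.05. Tests were two-sided, and n was 2 arrays per group throughout. The code was tested on simulated data. The number of arrays limits the precision.

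The members and the 7 pathway and 4 marker lists were chosen with earlier results of these data known. Named genes were all members, HAS3 and PTK2, up to 4 genes of smallest p per list and comparison among those that passed, those that passed in both named comparisons, and the 3 genes nearest in profile to XBP1 and SDF2L1. The same rule for HERPUD1 could not be applied without a probe. Genes with an ER stress response element were taken by sequence after the results were known, and no coordinates other than RefSeq's promoters were used. Replicate numbers were not used to pair the arrays, except in the replicate block. Differences between the numbered arrays correlated at 0.13 to 0.27 among the untreated, Y15 and siRNA groups. With the scrambled group they correlated at -0.07 to 0.06. These values are mixed, so whether the numbers pair the arrays was not settled. Alternatives covered the background correction, the offset, the normalization, the detection filter, the choice of probe, the arrays fitted, each array left out and a replicate block.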

Additional observations from a re-analysis of the deposited data

Results flagged for a closer look

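The change with Y15 and the change with HAS3 siRNA, each against its own control, were compared in a limma test of the difference itself, over 2 pairs of groups that share no array. Of the 110 other pathway genes tested 36 differed (32.7%), 16 higher and 20 lower, and 1 of the 7 members did, against 30.8% of all genes, so these shares were near the background. The genes named here are PDIA4, up to 4 genes of smallest p in each list, and those that passed in both comparisons. Each value is the Y15 change minus the siRNA change on the log2 scale, past an adjusted p under 0.05. Calls were also tried in 11 other settings and in 8 fits that each left out 1 array.

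Among the members PDIA4 differed by -0.70, a call lost in 6 of the 8 fits and in 4 settings. In the PERK arm the Y15 change was higher for ATF3 (4.70), PPP1R15A (3.04), DDIT3 (3.03) and DNAJC3 (1.38). ATF3, DDIT3 and PPP1R15A rose with Y15 and fell with siRNA, but the siRNA fall of DDIT3 was lost without any 1 of 3 arrays and that of PPP1R15A without any 1 of 2. Among sensors and transcription factors the differences were -1.29 for WFS1, -1.07 for MBTPS1, -1.09 for CREB3L4 and 0.82 for NFYA, the last lost in 2 of the 8 fits. Among chaperones they were 1.44 for DNAJB9, -0.93 for SIL1, -0.86 for FKBP2 and 0.79 for DNAJC1, the last lost in 1 of the 8. The FKBP2 value rests on its brightest probe, which read -0.52 with Y15 and 0.34 with siRNA. Its dimmer probes did not show this, at 0.04 and 0.07 with Y15 and -0.27 and 0.08 with siRNA. In disulfide formation the 4 genes with the smallest p differed by -1.01 in TMX3, -0.97 in CRELD1, -0.97 in TMX1 and -0.69 in TMX4, the last lost in 2 of the 8.

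In ER-associated degradation the differences were -1.32 for MAN1B1, 1.10 for DERL2, -0.78 for SEL1L and 0.74 for UFD1, and leaving out an array lost SEL1L in 4 fits and UFD1 in 6. In translocation the 4 named were -1.22 for SEC62, -1.24 for SSR4, -0.71 for SPCS1 and -0.88 for SEC63, with SPCS1 lost in 4 fits and SEC63 in 7. In ER to Golgi transport they were -1.36 for TMED10, -0.77 for KDELR3, 0.86 for SAR1B and 0.74 for KDELR1, with SAR1B lost in 6 fits and KDELR1 in 5. CREB3L4, DNAJC3, DNAJB9, FKBP2, TMX1 and DERL2 were each lost in 1 other setting, DERL2 at 0.39 (adjusted p = 0.389), and in none of the 8 fits. NFYA, DNAJC1, SEL1L, UFD1, SPCS1, SEC63, SAR1B and KDELR1 were also lost in 1 to 3 other settings. Centring on the median of all probes moved the median difference of all genes to -0.46, and centring on detected probes moved it to 0.27.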

How the results depend on the processing

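Results are given against 12 other settings (11 for the difference of effects) and 8 fits that each left out 1 array. Centring on the median of detected probes and the comparison of siRNA with untreated cells were added after seeing the data. With Y15, 2 members passed, 1 with centring on detected probes, and 2 to 3 with an array left out. For siRNA against scrambled 0 passed, and 1 passed (XBP1) without background correction, with offset 50, with the series matrix values, with detection p under 0.01 on all arrays, with the 4 arrays fitted alone and with the replicate block, and 0 to 1 with an array left out. The PDIA4 difference of effects was lost with cyclic loess, with no detection filter and with every probe tested (0 each). It was also lost with centring on detected probes, where XBP1 passed in its place, and in 6 of the 8 fits with an array left out. For Y15, median centring kept the count of 2 with PDIA4 in place of CALR. For scrambled against untreated 4 passed, 2 with median centring of all probes, 1 with centring on detected probes, 1 with no detection filter, and 1 to 4 with an array left out.

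Over all genes, counts were 892 for siRNA against scrambled, 323 with median centring, 462 with centring on detected probes, 1409 with the 4 arrays alone and 332 to 1212 with an array left out. For scrambled against untreated they were 2118, 1057, 1258 under the respective centrings, and 669 to 2695 with an array left out. For siRNA against untreated they were 2843, 1177 and 1893, and 1443 to 3323. Calls with Y15 were 45.0% higher, 12.7% with median centring and 64.9% with centring on detected probes. For siRNA against scrambled these shares were 42.3%, 62.5% and 35.5%, for the difference of effects 44.7%, 339 of 3374 calls and 69.3%, and for scrambled against untreated 45.3%, 11.7% and 56.2%. For siRNA against untreated median centring gave 29.1% against 46.5%.

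Median centring turned the sign of ATF6 (-0.34), EDEM1 (-0.37) and CRELD2 (-0.23) with Y15, of ATF6 (0.088) and EDEM1 (0.0006) with siRNA, and of the difference of effects for ATF6 (-0.43), CALR (-0.22), EDEM1 (-0.37) and CRELD2 (-0.47). Centring on detected probes turned XBP1 (0.29) and PTK2 (0.0314) with Y15 and SDF2L1 (0.13) in scrambled against untreated. XBP1 with Y15 was 0.0146 with cyclic loess, and PTK2 was 0.22 with the mean of its probes. With an array left out, XBP1 with Y15 ranged from -0.1464 to 0.0242, PTK2 from -0.239 to 0.0273, CRELD2 with siRNA from -0.077 to 0.1526 and SDF2L1 in scrambled against untreated from -0.0953 to 0.0547. None of these turned values passed in either direction, and their cause was not tested.

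The replicate block moved XBP1 with siRNA against scrambled from an adjusted p of 0.0575 to 0.0295. With it, 1146 genes passed there in place of 892.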
